A study of Rattus norvegicus with 8 samples.

Results

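Interferon-induced antiviral effectors are the gene products with which a cell resists infection after an interferon has bound its receptor. The group described here was taken by symbol from the deposited count table: the Ifi, Ifit, Ifitm, Isg, Oas, Gbp, Irgm, Igtp and Mx families and 19 further genes such as Rsad2, Bst2 and Usp18. It held 64 of the 29884 gene symbols. The tissue was the cervix of wild-type pregnant Sprague-Dawley rats that had received an intraperitoneal injection on gestational day 17 and were sampled 12 hours later. The LPS group was given lipopolysaccharide (LPS), a glycolipid in the outer membrane of Gram-negative bacteria, at 100 µg/kg, and the PBS group an equal volume of phosphate-buffered saline (PBS). Each group held 4 libraries, which the design text calls biological replicates; whether animals were pooled is not stated there. The comparison asks which cervical transcripts change in a rat model in which LPS is used to bring on preterm birth.

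Type I interferons signal through the receptor chains Ifnar1 and Ifnar2, and interferon gamma through Ifngr1 and Ifngr2. Either receptor activates Janus kinases that phosphorylate STAT proteins. After type I interferon a complex that holds Stat2 and Irf9 binds the interferon-stimulated response element (ISRE) in promoters, while interferon gamma acts through the gamma-activated site (GAS). LPS can start the type I branch through its receptor Tlr4, whose adaptors Ticam2 and Ticam1 lead to Irf3 and to interferon beta. The products of the induced genes bind or cut viral RNA, block membrane fusion and virus release, attack the vacuoles of microbes, or damp the pathway itself.

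Total counts lay between 33191039 and 40634384 per library, so that 3 counts corresponded to 0.0734 to 0.0899 CPM (counts scaled to a library of 1e6, here with TMM-scaled library sizes). Cervical markers were present in all 8 libraries, with 13094 to 23275 CPM of the mucin Muc5b in PBS and 18054 to 19486 CPM in LPS, and 105 to 118 and 56.3 to 100.5 CPM of the progesterone receptor Pgr. Symbols are those of the deposited table. Reads of close copies, such as the Oas1, Gbp, Ifitm and Irgm genes and the pair Ifit1 and Ifit1bl, may have been split between them.

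Nearly the whole group stood higher after LPS. All 64 members had at least 1 count, 59 passed the filter on low counts and were tested, and 50 of the 59 were called higher (84.7%) at an adjusted p under 0.05, against 9.49% of all 16117 genes tested. The median log2 fold change of the 59 was 1.5, against 0.0103 over all genes tested. Called and at least 2-fold higher were 38 members, against 4.74% of all genes, and called and at least 4-fold higher were 14, against 1.94%. In 49 of the 59 every LPS library lay above every PBS library, which held for 12.9% of all genes. Together the 64 genes took up 0.267 ± 0.0365% of the counts in PBS and 0.753 ± 0.0966% in LPS (mean ± SD, n = 4 per group). Because a piece of tissue was sequenced, a change in the number of cells of a type and a change in RNA per cell cannot be told apart, for a rise or a fall. No member was called lower by edgeR, DESeq2 or limma-voom (0 of 59, against 7.45% of all genes by edgeR). At an unadjusted p under 0.05, edgeR put 1 member lower, Ifitm10. Of the 50 calls, 46 held in every alternative setting run, and those that did not were of Ifi27, Oas3, Rsad2 and Dtx3l.

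**Figure D1:**
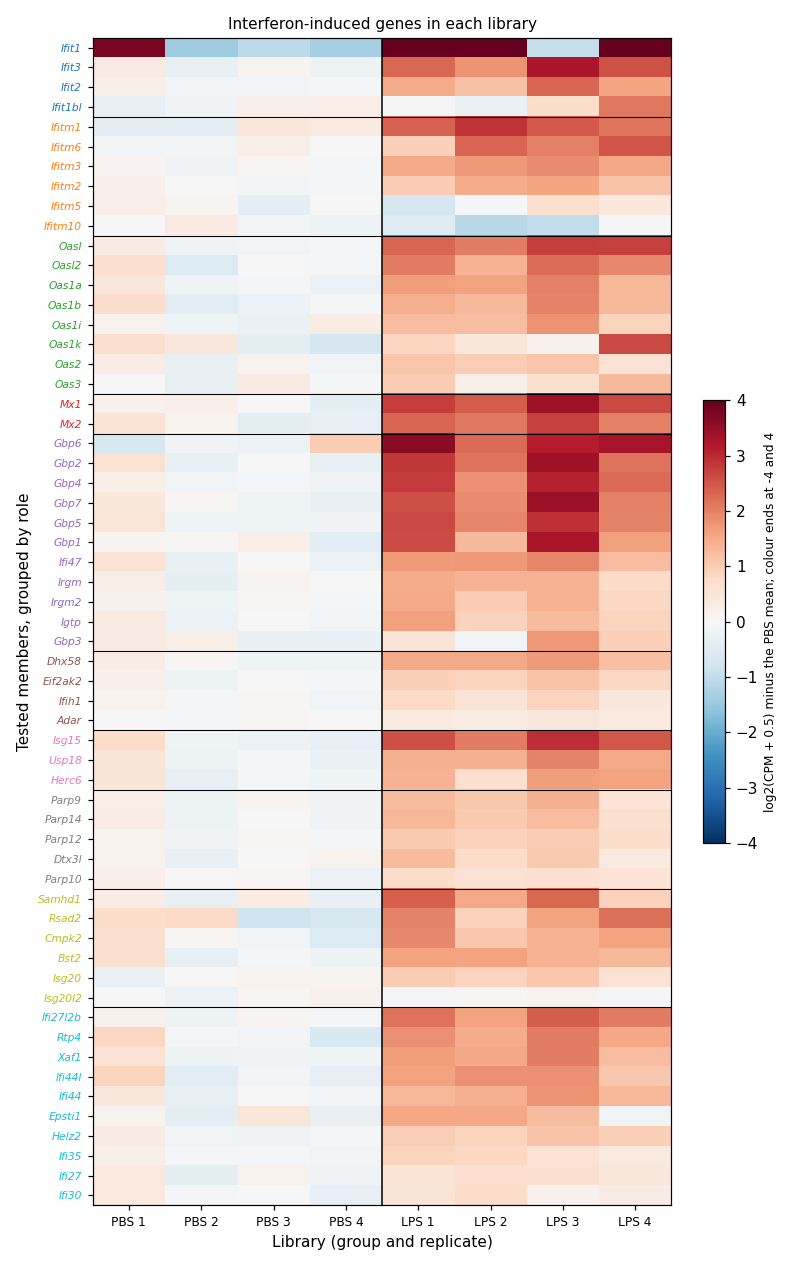
Each row is 1 of the 59 tested members, grouped by role, and each column 1 library. Colour is log2(CPM + 0.5) minus the mean of the 4 PBS libraries. Most rows are red across all 4 LPS columns, Ifit1 is dark in PBS replicate 1 and pale in LPS replicate 3, and PBS replicate 1 is the reddest of the PBS columns.

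**Figure D2:**
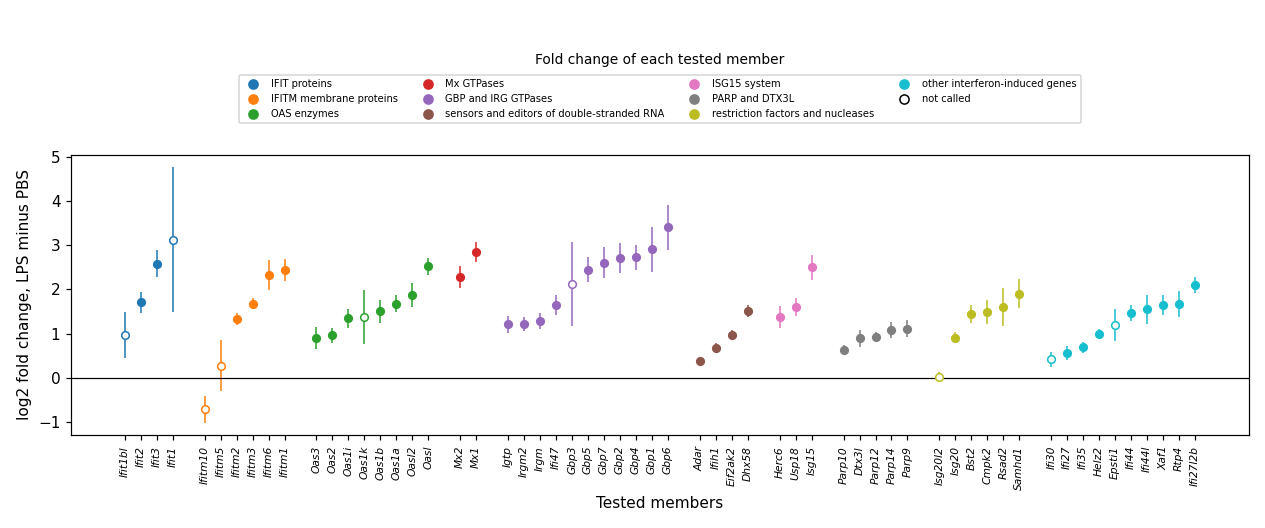
Log2 fold change (LPS minus PBS, vertical axis) of each tested member with its standard error as the bar, ordered within role groups. Filled points are called and open points are not. The GBP and Mx genes reach the highest called values, and Ifitm10 is the member below 0.

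The promoters of these genes were searched for the letters to which the pathway's transcription factors bind. RefSeq windows of the build GRCr8, from 250 bases before to 50 bases after an annotated start, were found for 50 of the 64 members (54 windows, as some genes have several). The ISRE letters (GAAA and GAAA with any 2 bases between them, on either strand) stood in 31 of the 54 windows (57.4%), against 3.92% of all 33469 windows. The GAS letters TTCNNNGAA, which read the same on both strands, stood in 14 windows (25.9%), against 8.87%. Of 39 called members with a window 12 held the GAS letters, as did 0 of 6 tested and not called and 2 of 5 below the filter. For the ISRE letters, 28 of the 39 called members held them, 2 of 6 that were not called, and 1 of 5 below the filter. Among tested members, the median log2 fold change was 1.39 for the 30 with an ISRE match and 1.37 for the 15 without. With the ISRE letters shortened by their last base it was 1.46 for 32 and 1.11 for 13, and with the GAS letters 1.53 for 12 and 1.33 for 33. These differences were not tested. A match is a run of letters and not a measured binding site. The following stretches of 40 bases are shown because they carry the letters that the rising genes of different roles share. Of the 10 roles 8 are shown. The Mx and Isg15 system roles had 1 window each, of Mx1 and Herc6, without these letters, and no window of Mx2, Isg15 or Usp18 was searched. Each stretch comes from the called member of its role with the lowest adjusted p among those with a match, is written 5′ to 3′ on the gene's strand, and has the ISRE letters in capitals.
Eif2ak2: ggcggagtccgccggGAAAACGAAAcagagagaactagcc
Isg20: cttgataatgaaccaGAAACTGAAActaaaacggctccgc
Parp12: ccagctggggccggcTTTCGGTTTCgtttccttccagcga
Ifi44: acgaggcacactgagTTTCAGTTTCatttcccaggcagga
Gbp4: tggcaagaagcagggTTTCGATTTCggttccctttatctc
Ifit3: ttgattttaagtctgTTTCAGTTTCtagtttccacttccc
Ifitm3: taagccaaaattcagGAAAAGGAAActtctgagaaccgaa
Oas1a: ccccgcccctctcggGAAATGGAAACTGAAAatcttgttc
In GRCr8 these lie at chr6:21941123-21941162 (plus strand) for Eif2ak2, chr1:142239952-142239991 (plus strand) for Isg20, chr4:68850535-68850574 (minus strand) for Parp12 and chr2:243303842-243303881 (minus strand) for Ifi44. That of Gbp4 lies at chr2:233978461-233978500 (plus strand), that of Ifit3 at chr1:241527267-241527306 (plus strand), that of Ifitm3 at chr1:205541778-205541817 (minus strand) and that of Oas1a at chr12:41330410-41330449 (plus strand). In Oas1a a pair of matches overlaps, so that the capitals run on.

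The 40 ISRE matches, counted with their overlaps, began between 230 bases before and 26 bases after the start, and 29 of them began within the 110 bases before it. On the gene's own strand lay 28 and on the other strand 12. In 11 windows the ISRE and GAS letters occurred together, and in 6 of these their first bases were 11 apart. The IRG GTPases Irgm, Igtp and Irgm2 and the ADP-ribosyltransferase Parp14 shared 1 arrangement. In it the GAS letters come first and 2 bases separate them from the ISRE letters. In Ifitm3 and the untested Ifitm7, which had the same distance of 11, the ISRE letters come first. The stretches of Igtp and Irgm2, both on chromosome 10, are also nearly alike after the ISRE letters, so they may not be separate instances. The stretches of Irgm, Igtp, Irgm2 and Parp14 are shown with both motifs in capitals.
Irgm: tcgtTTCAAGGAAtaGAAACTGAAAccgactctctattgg
Igtp: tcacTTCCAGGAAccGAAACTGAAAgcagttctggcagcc
Irgm2: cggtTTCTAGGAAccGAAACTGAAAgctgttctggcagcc
Parp14: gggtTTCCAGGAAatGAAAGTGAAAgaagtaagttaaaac
Their GRCr8 positions are chr10:33742588-33742627 (minus strand), chr10:42874929-42874968 (plus strand), chr10:42889853-42889892 (plus strand) and chr11:78408043-78408082 (plus strand), in that order. Gbp2 and Mx1 are set side by side as GTPase genes that both rose at least 4-fold: the window of Gbp2 held the ISRE letters and that of Mx1 did not. Both windows are shown whole, with the ISRE letters in capitals.
Gbp2: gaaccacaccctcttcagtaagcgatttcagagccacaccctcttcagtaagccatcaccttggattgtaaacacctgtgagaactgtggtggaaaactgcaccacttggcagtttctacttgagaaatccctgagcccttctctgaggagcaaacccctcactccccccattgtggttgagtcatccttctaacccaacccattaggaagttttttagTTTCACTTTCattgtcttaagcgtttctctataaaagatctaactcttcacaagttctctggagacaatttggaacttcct
Mx1: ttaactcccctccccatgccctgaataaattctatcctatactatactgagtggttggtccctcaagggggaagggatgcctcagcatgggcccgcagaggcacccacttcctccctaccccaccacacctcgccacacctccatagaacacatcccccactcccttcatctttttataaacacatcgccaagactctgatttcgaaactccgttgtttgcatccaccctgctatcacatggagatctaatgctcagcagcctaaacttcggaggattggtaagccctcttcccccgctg
That of Gbp2 is chr2:234005477-234005776 (plus strand) and that of Mx1 chr11:50294557-50294856 (minus strand). The other called members whose windows lack these letters were Oasl, Gbp6, Ifi47, Herc6, Parp9, Cmpk2, Samhd1, Helz2, Ifi35 and Ifitm6.

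**Figure D3:**
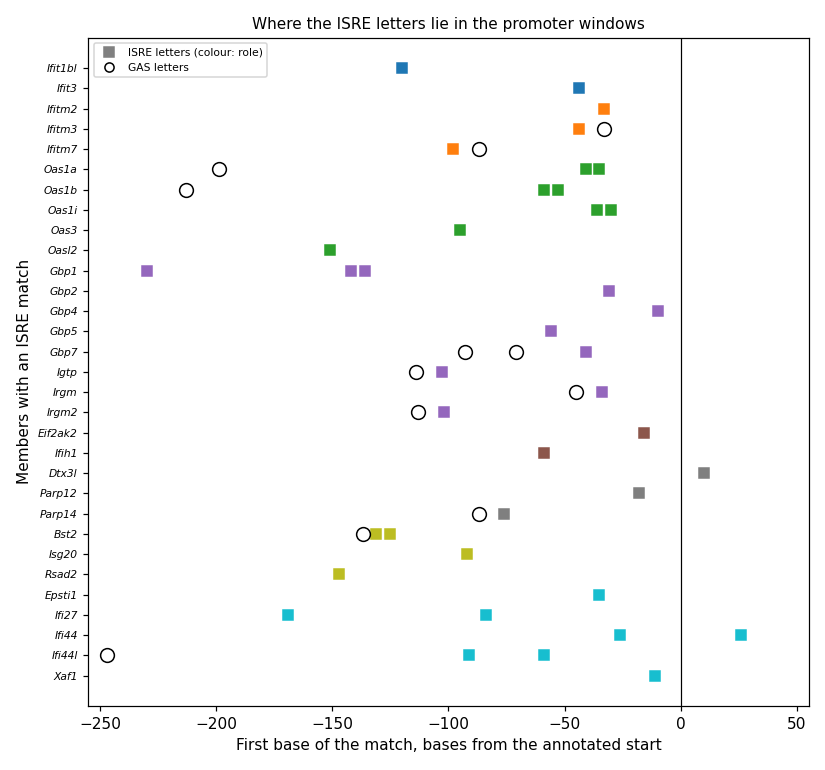
Squares mark the first base of each ISRE match in the 31 members that have one, by distance from the annotated start (horizontal axis, bases), coloured by role. Open circles mark GAS matches in the same members. Most squares lie in the 110 bases before the start.

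In the paragraphs on each role, values are CPM in PBS replicates 1 to 4 and then in LPS replicates 1 to 4. The Mx proteins are dynamin-like GTPases that trap viral nucleocapsids, and both were called higher. Mx1 stood at 55.2, 56.4, 49.5 and 37.9 CPM in PBS replicates 1 to 4 and at 334, 268, 522 and 311 CPM in LPS replicates 1 to 4 (log2 fold change 2.85, SE 0.23, adjusted p = 0.0004). Mx2 stood at 77.7, 57.7, 40.9 and 41.6 CPM in PBS and 268, 230.3, 349 and 216 CPM in LPS (log2 fold change 2.29, SE 0.25, adjusted p = 0.00108). The groups did not overlap in either gene.

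The guanylate-binding proteins (GBPs) and immunity-related GTPases (IRGs) coat the vacuoles and membranes of microbes, and in mice GBPs also bind LPS in the cytosol. Of 11 tested, 10 were called higher, with a median log2 fold change of 2.45 over the 11. Gbp2 stood at 58.99, 31.5, 37.9 and 31.2 CPM in PBS and 279, 175, 411 and 176 CPM in LPS (log2 fold change 2.70, SE 0.34, adjusted p = 0.00191). Gbp4 stood at 4.34, 3.24, 3.4 and 3.15 CPM in PBS and 27.4, 13.6, 33.5 and 18.9 CPM in LPS (log2 fold change 2.72, SE 0.28, adjusted p = 0.000977). Gbp5, which in mice and humans promotes inflammasome assembly, stood at 16.5, 10.2, 10.1 and 10.3 CPM in PBS and 73.9, 45.7, 91.3 and 46.9 CPM in LPS (log2 fold change 2.45, SE 0.27, adjusted p = 0.0013). In each of these LPS replicate 3 was the highest library and PBS replicate 1 the highest control, and the groups did not overlap. Gbp6 had the largest log2 fold change of all called members, 3.41 (SE 0.51, adjusted p = 0.00412), from low levels of 0.639 to 3.12 CPM in PBS to 8.14 to 21.3 CPM in LPS, and Gbp1 and Gbp7 rose by 2.91 and 2.60. The IRG genes rose less than these GBPs did in the fitted values. Irgm2, which in mice helps to keep IRG proteins off the cell's own membranes, stood at 76.3, 60.7, 70.8 and 65.6 CPM in PBS and 197, 138, 179 and 122 CPM in LPS (log2 fold change 1.22, SE 0.16, adjusted p = 0.0022). Irgm, Igtp and Ifi47 rose by 1.28, 1.21 and 1.64. The differences between GBP and IRG genes were not tested. Gbp3 was not called: its values were 0.332, 0.272, 0.0246 and 0.03 CPM in PBS and 0.42, 0.102, 1.67 and 0.758 CPM in LPS (log2 fold change 2.13, SE 0.96, adjusted p = 0.162), and its log2 fold change was 1.34 without LPS replicate 3. At 26 counts in PBS and 118 in LPS it lay near the limit of detection.

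IFIT proteins bind viral RNA by its foreign end, and 2 of the 4 genes were called higher. Ifit3 stood at 26.3, 16.5, 22.1 and 17.7 CPM in PBS and 101, 71.9, 200.2 and 122 CPM in LPS (log2 fold change 2.58, SE 0.31, adjusted p = 0.00171). Ifit2 stood at 49.5, 38.7, 38.8 and 40.5 CPM in PBS and 119, 94.2, 209 and 124 CPM in LPS (log2 fold change 1.71, SE 0.23, adjusted p = 0.00274). For both, LPS replicate 3 was the highest library. Ifit1 went against this order. Its counts were 1047, 10, 19 and 10 in PBS, or 26.7, 0.248, 0.468 and 0.3 CPM, and 3119, 2681, 21 and 3968 in LPS, or 77.04, 68.6, 0.532 and 97.03 CPM. PBS replicate 1 thus lay nearest to 3 of the LPS libraries, and LPS replicate 3, the highest of its group in Ifit2 and Ifit3, stood with the other 3 PBS libraries. The gene was not called (log2 fold change 3.13, SE 1.64, adjusted p = 0.224), and leaving out PBS replicate 1 gave 7.46 (adjusted p = 0.0216). No RefSeq window of Ifit1 was found, and those of Ifit3 and of Ifit1bl, an Ifit1-like copy, lie on chromosome 1. Ifit1bl stood at 7.79, 8.99, 11.6 and 12.1 CPM in PBS and 9.44, 8.14, 16.4 and 44.97 CPM in LPS (log2 fold change 0.97, SE 0.51, adjusted p = 0.231). LPS replicate 4 lay above all other libraries, and the log2 fold change of Ifit1bl was 0.17 without that library. Both genes were highest in LPS replicate 4. Among the other libraries Ifit1bl stood at 7.79 to 9.44 CPM in the 3 with high Ifit1 counts and at 8.99 to 16.4 CPM in the 4 with low ones. A split of reads between these copies, an allele that differs between the animals and an exchange of samples were not tested for, so the Ifit1 values carry that doubt.

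**Figure D4:**
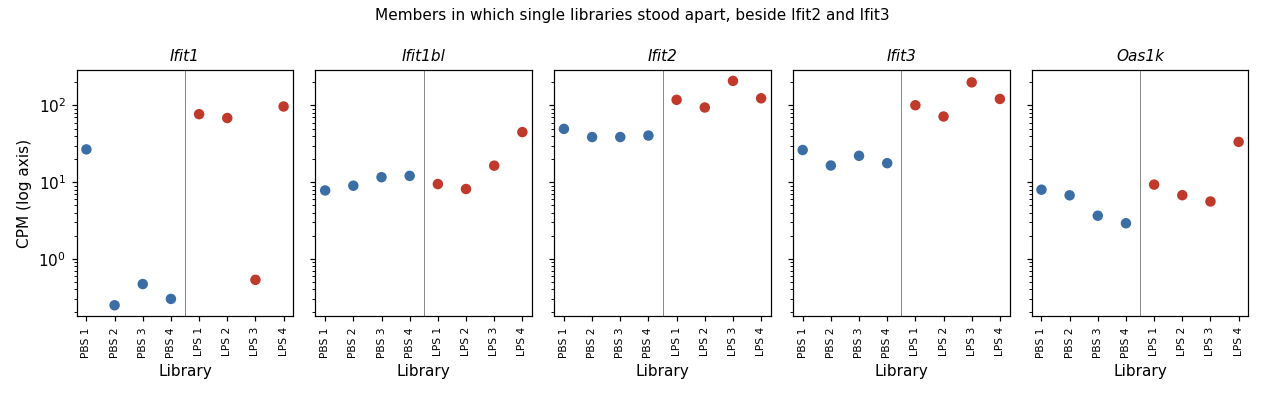
CPM (log axis) of the 4 Ifit genes and of Oas1k in each library, PBS in blue and LPS in red. In Ifit2 and Ifit3 every red point lies above every blue point. In Ifit1 PBS replicate 1 and LPS replicate 3 lie with the other group, and in Ifit1bl and Oas1k LPS replicate 4 stands above the rest.

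OAS enzymes make oligoadenylates that switch on the ribonuclease RNase L when they meet double-stranded RNA. Of the 12 genes, 8 were tested and 7 were called higher, with a median of 1.44 over the 8. Oasl, an OAS-like gene, stood at 19.7, 14.2, 14.6 and 14.9 CPM in PBS and 81.2, 66.2, 109.8 and 106 CPM in LPS (log2 fold change 2.52, SE 0.19, adjusted p = 0.0004). Oasl2 stood at 39.5, 16.9, 24.5 and 23.8 CPM in PBS and 104, 66.2, 118 and 96.6 CPM in LPS (log2 fold change 1.88, SE 0.27, adjusted p = 0.00341). Oas1a stood at 30.2, 19.9, 20.7 and 18.8 CPM in PBS and 71.4, 68.2, 90.8 and 56.2 CPM in LPS (log2 fold change 1.68, SE 0.19, adjusted p = 0.00133). These did not overlap between the groups, and PBS replicate 1 was the highest control in all of them. Oas1b, Oas1i and Oas2 rose by 1.5, 1.34 and 0.96. The larger enzyme Oas3 stood at 5.21, 4.03, 6.51 and 4.98 CPM in PBS and 10.97, 6.14, 8.21 and 13.4 CPM in LPS (log2 fold change 0.90, SE 0.26, adjusted p = 0.0453). LPS replicate 2 lay below PBS replicate 3, and the call was lost without any one library other than LPS replicate 2 (adjusted p of 0.0561 to 0.123), with limma-voom (0.0681) and with no filter (0.0501). Oas1k was not called, with 7.97, 6.73, 3.65 and 2.91 CPM in PBS and 9.29, 6.76, 5.6 and 33.5 CPM in LPS (log2 fold change 1.37, SE 0.61, adjusted p = 0.158). LPS replicate 4 alone stood high, and without it the log2 fold change was 0.44. The untested copies Oas1d, Oas1e and Oas1h had between 0 and 12 counts in each library. Oas1f, also below the filter, had 91 counts in the PBS group against 26 in LPS, and was tested and called lower without PBS replicate 1.

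IFITM proteins sit in membranes and hinder the fusion of viruses with the cell. Of 6 tested, 4 were called higher. Ifitm3, which acts in endosomes, stood at 408, 339, 397 and 361 CPM in PBS and 1071, 1252, 1404 and 1086 CPM in LPS (log2 fold change 1.68, SE 0.12, adjusted p = 0.000306), the lowest adjusted p of the members. Ifitm1, which acts at the cell surface, stood at 59.7, 60.5, 106 and 103 CPM in PBS and 406, 596, 433 and 355 CPM in LPS (log2 fold change 2.44, SE 0.25, adjusted p = 0.000967). Ifitm2 stood at 46.6, 40.99, 37.5 and 38.1 CPM in PBS and 83.1, 115, 121 and 90.98 CPM in LPS (log2 fold change 1.33, SE 0.14, adjusted p = 0.000946). All 3 were higher in every LPS library than in any control, and LPS replicate 3 was not the highest library of Ifitm1. Ifitm6 rose by 2.33 from low levels of 1.66 to 2.27 CPM. The values of Ifitm10 went the other way, with 4.32, 5.69, 4.07 and 3.72 CPM in PBS and 2.89, 1.77, 2.001 and 4.16 CPM in LPS (log2 fold change -0.72, SE 0.30, adjusted p = 0.135). LPS replicate 4 overlapped the controls, and without it Ifitm10 was called lower, at -1.002 (adjusted p = 0.0435). Ifitm5, which is known from bone, stood at 0.69, 0.594, 0.296 and 0.51 CPM in PBS and 0.123, 0.486, 1.06 and 0.856 CPM in LPS (log2 fold change 0.27, SE 0.59, adjusted p = 0.783), and its sign changed without LPS replicate 3. Ifitm7 had 1 count in all 8 libraries and was not tested.

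The genes that sense or alter double-stranded RNA were all called higher (4 of 4), with a median of 0.82. Dhx58, which encodes the sensor LGP2, stood at 24.5, 20.8, 17.5 and 17.7 CPM in PBS and 58.3, 57.95, 66.7 and 46.9 CPM in LPS (log2 fold change 1.51, SE 0.14, adjusted p = 0.000728). Eif2ak2, the kinase PKR that halts translation, stood at 86.7, 64.6, 75.7 and 72.6 CPM in PBS and 146, 139, 166 and 134 CPM in LPS (log2 fold change 0.96, SE 0.11, adjusted p = 0.0013). Adar, which edits adenosine to inosine, stood at 109.9, 109.8, 115 and 115 CPM in PBS and 148, 139, 152 and 146 CPM in LPS (log2 fold change 0.38, SE 0.065, adjusted p = 0.00621). The groups did not overlap in any of these, although the rise of Adar was the smallest among the called members. Ifih1, which encodes the sensor MDA5, rose by 0.67.

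Isg15 is a ubiquitin-like protein that is attached to other proteins, and its system holds both a ligase and a protease. Isg15 stood at 40.3, 21.4, 20.3 and 19.2 CPM in PBS and 145, 101, 190.1 and 137 CPM in LPS (log2 fold change 2.50, SE 0.29, adjusted p = 0.00135). Usp18, which removes Isg15 and dampens signalling at Ifnar2, stood at 28.6, 17.2, 19.02 and 16.2 CPM in PBS and 54.3, 54.2, 78.8 and 57.6 CPM in LPS (log2 fold change 1.60, SE 0.21, adjusted p = 0.00212). Herc6, the Isg15 ligase of mice, stood at 33.7, 18.5, 22.7 and 20.6 CPM in PBS and 62.2, 37.6, 75.7 and 71.7 CPM in LPS (log2 fold change 1.37, SE 0.25, adjusted p = 0.0091). PBS replicate 1 was the highest control for all 3, and still lay below the lowest LPS library.

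The PARP genes encode ADP-ribosyltransferases, and Dtx3l is the ubiquitin ligase that pairs with Parp9. All 5 were called higher, by 0.63 to 1.11 on the log2 scale. Parp9 stood at 163, 119, 148 and 124 CPM in PBS and 329, 293, 373 and 201 CPM in LPS (log2 fold change 1.11, SE 0.19, adjusted p = 0.00688). Parp14 stood at 163, 115, 134 and 119.8 CPM in PBS and 332, 275, 312 and 205 CPM in LPS (log2 fold change 1.08, SE 0.17, adjusted p = 0.00468). Dtx3l stood at 87.04, 63.7, 77.8 and 86.98 CPM in PBS and 191, 132, 163 and 102 CPM in LPS (log2 fold change 0.90, SE 0.19, adjusted p = 0.0159). In these LPS replicate 4 was the lowest of its group, and the call of Dtx3l was lost without PBS replicate 2 (adjusted p = 0.0505). Parp12 stood at 49.5, 39.9, 46.1 and 42.6 CPM in PBS and 91.7, 84.2, 90.96 and 72.99 CPM in LPS (log2 fold change 0.93, SE 0.10, adjusted p = 0.00106). Parp10 stood at 40.1, 34.4, 36.6 and 30.1 CPM in PBS and 58.8, 52.9, 56.1 and 51.4 CPM in LPS (log2 fold change 0.63, SE 0.098, adjusted p = 0.00428). The spread of both within a group was small beside the difference between groups.

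Among restriction factors and nucleases, 5 of 6 were called higher. Bst2, or tetherin, which holds budding virus at the cell surface, stood at 184, 93.7, 111 and 102 CPM in PBS and 363, 361, 313 and 298 CPM in LPS (log2 fold change 1.44, SE 0.21, adjusted p = 0.00364). The exonuclease Isg20 stood at 61.3, 74.5, 80.8 and 79.6 CPM in PBS and 151, 136, 156 and 112 CPM in LPS (log2 fold change 0.91, SE 0.13, adjusted p = 0.00311). Rsad2, or viperin, which makes a chain-terminating nucleotide, stood at 29.3, 30.6, 10.1 and 11.3 CPM in PBS and 72.9, 34.1, 55.2 and 84.1 CPM in LPS (log2 fold change 1.60, SE 0.43, adjusted p = 0.0368). Bst2 in PBS replicate 1 was well above the other controls, whereas for Rsad2 PBS replicates 1 and 2 were the high controls. Leaving out PBS replicate 3 or 4, or LPS replicate 1, 3 or 4, left Rsad2 uncalled (adjusted p of 0.0668 to 0.0783), as did testing with no filter (0.0605). Cmpk2, a nucleotide kinase, and Samhd1, which depletes deoxynucleotides, rose by 1.5 and 1.90. Isg20l2, a relative of Isg20 known for ribosomal RNA processing, stood at 21.9, 18.8, 23.6 and 24.97 CPM in PBS and 21.3, 22.8, 24.4 and 21.7 CPM in LPS (log2 fold change 0.015, SE 0.10, adjusted p = 0.941), and its sign changed without PBS replicate 2 or LPS replicate 3.

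Of the 10 remaining interferon-induced genes, 8 were called higher. Ifi27l2b stood at 95.5, 74.1, 92.1 and 81.7 CPM in PBS and 389.9, 263, 461 and 357 CPM in LPS (log2 fold change 2.10, SE 0.17, adjusted p = 0.000413). Its relative Ifi27 stood at 416, 241, 344 and 285 CPM in PBS and 458, 507, 487 and 435 CPM in LPS (log2 fold change 0.55, SE 0.16, adjusted p = 0.0476). The Ifi27 libraries did not overlap, but PBS replicate 1 came close to the LPS group, and the call was lost without any one library other than PBS replicate 1, with RLE or upper-quartile scaling and with either other filter (adjusted p of 0.0509 to 0.109 over these). Helz2, a helicase, stood at 48.9, 35.8, 34.8 and 36.2 CPM in PBS and 77.3, 71.3, 85.9 and 74.4 CPM in LPS (log2 fold change 0.99, SE 0.12, adjusted p = 0.00184). Ifi44, Ifi44l, Xaf1, Rtp4 and Ifi35 rose by 1.47, 1.55, 1.65, 1.67 and 0.69. Epsti1 was not called, with 11.2, 7.77, 14.1 and 8.12 CPM in PBS and 30.2, 30.4, 24.6 and 9.34 CPM in LPS (log2 fold change 1.20, SE 0.36, adjusted p = 0.055). LPS replicate 4 alone lay among the controls, and without it Epsti1 was called (1.46, adjusted p = 0.00655), as it was by DESeq2 with all libraries (adjusted p = 0.00805). Ifi30, a lysosomal thiol reductase of antigen processing, stood at 84.6, 60.00, 64.95 and 50.2 CPM in PBS and 90.7, 105, 71.7 and 79.1 CPM in LPS (log2 fold change 0.42, SE 0.17, adjusted p = 0.136), and was called without PBS replicate 1 (0.57, adjusted p = 0.0425).

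The libraries of a group did not stand level. Within PBS, replicate 1 held the highest value of 45 of the 59 tested members, and replicates 2, 3 and 4 that of 3, 7 and 4. The 64 members summed to 3233 CPM there and to 2330 to 2704 CPM in the other controls. Without PBS replicate 1, 51 members were called higher and the median log2 fold change was 1.67, with 50 of 59 members at a larger value. Within LPS, replicate 3 was highest in 36 of the 59, and replicates 2 and 4 were lowest in 25 each. That replicate summed to 8928 CPM, and the others to 6553 to 7616 CPM. Without LPS replicate 3, 47 members were called higher and the median was 1.38, with 46 of 59 at a smaller value. The lowest LPS sum was still more than 2 times the highest PBS sum.

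**Figure D5:**
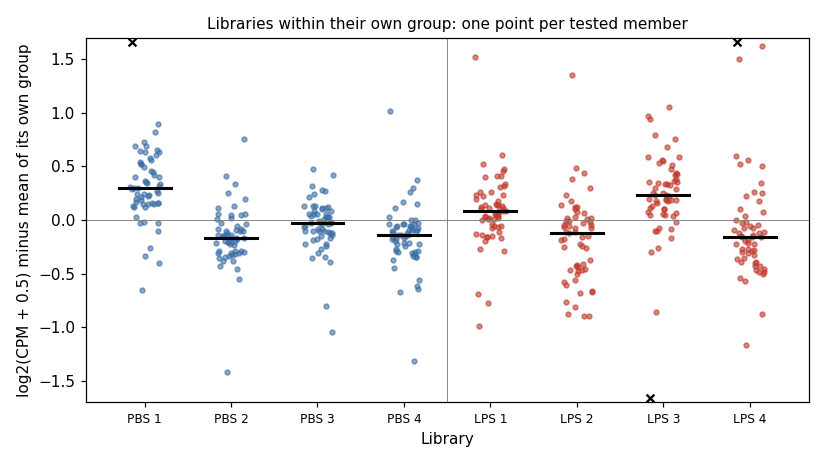
Each point is a tested member, placed at log2(CPM + 0.5) minus the mean of its own group, in each library. Black bars are medians, and crosses mark 3 points beyond the axis. The median is 0.30 in PBS replicate 1 and 0.23 in LPS replicate 3, and lies between -0.16 and 0.08 in the other libraries.

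Markers of other cells moved with the groups as well. Over all genes tested, 9.49% were called higher and 7.45% lower. Of 8 macrophage and monocyte markers 7 were called higher, and their summed level was 414 to 544 CPM in PBS and 1104 to 1583 CPM in LPS. Of 7 tested neutrophil markers 6 were called higher, with sums of 36.0 to 61.4 CPM in PBS and 391 to 1629 CPM in LPS, and Elane was below the filter. T and NK cell markers (3 of 7 higher) summed to 77.9 to 132 CPM in PBS and 75.5 to 125 CPM in LPS, with Klrb1 at 0 counts. Most of these sums was Cd4, at 71.8 to 124.7 CPM in PBS and 62.1 to 109.5 CPM in LPS. Cd4 was not called (log2 fold change -0.24). The 3 called were Cd8a, Gzmb and Prf1, with log2 fold changes of 1.40, 3.21 and 1.72 at low levels. B and plasma cell markers summed to 3.12 to 9.77 CPM in PBS and 2.89 to 8.75 CPM in LPS. Of these edgeR called 0 of 2 tested genes, also at an unadjusted p under 0.05. Of 5 markers of plasmacytoid dendritic cells, which are known for making interferon alpha, 1 was called higher, Tcf4. The 5 summed to 131 to 156 CPM in PBS and 172 to 208 CPM in LPS, mostly of Tcf4 and Irf8. Tcf4 stood at 50.8 to 73.0 CPM in PBS and 69.9 to 96.1 CPM in LPS. For Irf8 the values were 49.9 to 84.4 and 76.3 to 91.2 CPM. Siglech stood at 0.383 to 4.68 CPM in PBS and 0.912 to 2.79 CPM in LPS. Neither Irf8 nor Siglech was called. The macrophage sums of LPS replicates 1 to 4 were 1104, 1583, 1482 and 1133 CPM. The high sum of replicate 2 held 591 CPM of Adgre1, against 181 to 273 CPM in the others, and 5 of the 8 markers were highest in replicate 3, the library highest in most antiviral genes. The neutrophil sum was highest in LPS replicate 4. Of 5 endothelial markers edgeR called 0, also at an unadjusted p under 0.05. The endothelial sums were 594, 452, 345 and 267 CPM in PBS and 424, 408, 487 and 301 CPM in LPS. In LPS their order was that of the members' sums (7616, 7023, 8928 and 6553 CPM). No other marker list had that order, and the endothelial list is named for it after its sums were seen. In PBS the orders of the endothelial and members' sums differed, with members' sums of 3233, 2330, 2704 and 2461 CPM. There replicate 2 was lowest, though replicate 4 was lowest in the endothelial sums. PBS replicate 1 was the highest control in the members' sum and in the endothelial and macrophage sums. The macrophage sum was 544 CPM there, against 414 to 443 CPM in the other controls. That library was also the highest control in the T and NK, smooth muscle and fibroblast sums (132, 9404 and 10824 CPM). Its T and NK sum held 124.7 CPM of Cd4. Among the controls Cd3e, Cd3d, Cd8a and Nkg7 were highest in replicate 3, Gzmb in replicate 4 and Prf1 in replicate 1. In the columnar epithelium sum PBS replicate 1 was the lowest control (15120 CPM, against 19970 to 25450 CPM). Of the tissue's own cells, 3 of 5 smooth muscle markers were called lower (summed level 3694 to 9404 CPM in PBS and 3108 to 4662 CPM in LPS) and 3 of 5 fibroblast markers higher (8718 to 10824 and 11952 to 19232 CPM). Of 3 tested squamous epithelium markers Krt13 was called lower (log2 fold change -4.53, SE 0.45, adjusted p = 0.000846). It stood at 1383 to 3536 CPM in PBS and 54.3 to 162 CPM in LPS. Krt5 and Krt14 were not called (log2 fold changes -0.30 and 0.12), and each overlapped between the groups. With the untested Krt4, the list's sums were 4636 to 8494 CPM in PBS and 3002 to 3934 CPM in LPS. That these sums did not overlap rested on Krt13. Of 4 markers of the pregnant cervix, Pgr and the oxytocin receptor gene Oxtr were called lower (-0.63 and -2.41), and of 5 columnar epithelium markers edgeR called 0, with Krt8 lower at an unadjusted p under 0.05. The part of all these markers in the rise of the antiviral genes was not tested.

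The interferons themselves were hardly seen 12 hours after the injection. Of the 11 ligand genes with a row, 7 had 0 counts in all 8 libraries, among them Ifnb1, the gene of interferon beta. This allows at most 3 counts, or 0.0734 to 0.0899 CPM, in any library. Ifng, the gene of interferon gamma, stood at 0.0511, 0, 0.0246 and 0.03 CPM in PBS and 0, 0, 0 and 0.0489 CPM in LPS, within that limit. Ifne, which in mice and humans is made by the epithelium of the female reproductive tract, reached 0.519 CPM at most. The 11 also held the interleukin gene Il27, with 2, 2, 1 and 0 counts in PBS and 4, 2, 13 and 8 in LPS. In CPM these were 0 to 0.0511 in PBS and 0.0512 to 0.329 in LPS. None of the 11 passed the filter, so a change of the ligands was not tested and could not be told at this depth.

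In the rest of the pathway, as listed, 20 of 41 tested genes were called higher and 1 lower, against 9.49% and 7.45% of all genes tested. Of 6 receptor chains 4 were higher. Ifnar1 stood at 76.4, 70.3, 63.1 and 59.4 CPM in PBS and 94.7, 90.3, 116 and 87.5 CPM in LPS (log2 fold change 0.53, SE 0.12, adjusted p = 0.0171), and was not called once PBS replicate 3 was left out. Ifnar2 stood at 29.6, 28.6, 29.6 and 29.5 CPM in PBS and 41.3, 38.7, 68.02 and 41.2 CPM in LPS (log2 fold change 0.69, SE 0.17, adjusted p = 0.0295), with LPS replicate 3 apart from the rest and the call lost without any one PBS library (adjusted p of 0.0548 to 0.0833). Ifngr2 stood at 35.6, 37.2, 44.6 and 41.6 CPM in PBS and 62.5, 68.96, 77.9 and 80.5 CPM in LPS (log2 fold change 0.87, SE 0.11, adjusted p = 0.00187). Ifngr1 was not called, with 122, 161, 177 and 150.5 CPM in PBS and 209, 157, 264 and 224 CPM in LPS (log2 fold change 0.49, SE 0.17, adjusted p = 0.0832), where LPS replicate 2 lay among the controls and its removal gave a call (0.60, adjusted p = 0.0311), as did DESeq2 with all libraries (adjusted p = 0.0385).

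Both Stat2 and Irf9, which take part in binding the ISRE, were called higher. Stat2 stood at 62.1, 52.5, 48.8 and 53.1 CPM in PBS and 163, 132, 189 and 123 CPM in LPS (log2 fold change 1.49, SE 0.15, adjusted p = 0.000838). Irf9 stood at 65.4, 45.9, 50.9 and 46.5 CPM in PBS and 91.9, 86.6, 109 and 86.02 CPM in LPS (log2 fold change 0.84, SE 0.13, adjusted p = 0.00466). PBS replicate 1 was the highest control of both, and the groups did not overlap. Irf7, which amplifies type I interferon, stood at 187, 87.8, 119 and 80.9 CPM in PBS and 581, 465, 537 and 439 CPM in LPS (log2 fold change 2.09, SE 0.26, adjusted p = 0.00196), with PBS replicate 1 again the highest control. Irf1, a target of interferon gamma and NF-kB, stood at 55.6, 41.4, 46.8 and 60.1 CPM in PBS and 112, 78.8, 95.1 and 104 CPM in LPS (log2 fold change 0.93, SE 0.15, adjusted p = 0.00457). Of the 9 IRF genes tested 4 were called higher.

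Of the 13 tested genes that lead to interferon through nucleic acids or Tlr4, 7 were called higher. Zbp1, a sensor of Z-form nucleic acid, stood at 6.08, 6.91, 9.22 and 7.49 CPM in PBS and 27.6, 20.99, 22.2 and 19.98 CPM in LPS (log2 fold change 1.61, SE 0.16, adjusted p = 0.000814). Tlr4 was the 1 gene called lower and is named for that, after its value was seen: it stood at 42.5, 55.97, 48.9 and 51.9 CPM in PBS and 37.9, 35.9, 38.6 and 43.5 CPM in LPS (log2 fold change -0.35, SE 0.10, adjusted p = 0.0446), and leaving out any single library other than PBS replicate 1 or LPS replicate 4 removed the call, as did limma-voom (adjusted p = 0.0504). Among 7 inhibitors 2 were higher. The phosphatase Ptpn6 stood at 31.1, 29.9, 30.9 and 27.7 CPM in PBS and 59.6, 69.3, 51.1 and 59.4 CPM in LPS (log2 fold change 0.999, SE 0.099, adjusted p = 0.000814), with no overlap between the groups.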

How the data were processed

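The values the authors deposited are raw counts by gene symbol for 8 libraries prepared from cervical total RNA with the VAHTS Universal V6 kit, per the labels' protocols. The submitters' processing notes name the build mRatBN7.2, HISAT2, fastp, HTSeq and R 3.2.0 without roles. Neither strand setting nor annotation is given in the sources used here, so overlapping and antisense genes could not be told apart. Columns were matched to samples by library name, and LPS replicate 4 carries the number 5 there.

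After filterByExpr (by group) and TMM scaling, edgeR 4.0.16 in R 4.3.3 compared the groups (robust quasi-likelihood fit, F test, no covariate, Benjamini-Hochberg adjustment over all 16117 genes tested), with calls at an adjusted p under 0.05. Log2 fold changes are LPS minus PBS, and the SE is the size of the change divided by the square root of F. The fit and the motif search were tested on simulated data. Intervals and floors cover counting error only, and p-values measure the spread between these libraries.

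Alternatives were DESeq2 1.42.0, limma-voom 3.58.1 (also with quality weights), upper-quartile or RLE scaling, no filter, a filter of 1 CPM or more in 4 or more libraries, each library left out, PBS replicate 1 and LPS replicate 2 left out together, the replicate number as a block, and a shorter form of the ISRE letters. The members, roles and lists were chosen with earlier results of these data known. Named in full were, in each role, the 2 tested members with the largest summed count and the 2 called with the lowest adjusted p, every tested member not called, every member that 1 library decides, and 11 fixed and 2 further pathway genes, of which 1 is not reported here; Tlr4 was added. No protein table was used here, so identities between copies were not computed.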

Additional observations from a re-analysis of the deposited data

Results flagged for a closer look

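Among 142 groups of 4 libraries (59 members and 12 pathway genes in PBS and in LPS), 13 held 1 library whose gap to the nearest of the others exceeded Dixon's 95% critical value. Chance flags about 1 in 20 groups. In 9 of the 13 the library was PBS replicate 1, as the highest control. It held 16.5 CPM of Gbp5 (the next control 10.3), 48.9 CPM of Helz2 (next 36.2), 32.6 CPM of Ifi35 (next 26.7) and 26.7 CPM of Ifit1 (next 0.468). It also held 49.5 CPM of Ifit2 (next 40.5), 40.3 CPM of Isg15 (next 21.4), 30.2 CPM of Oas1a (next 20.7), 19.7 CPM of Oasl (next 14.9) and 22.3 CPM of Xaf1 (next 13.6). LPS replicate 3 was high in Usp18, with 78.8 CPM (next 57.6), and in Ifnar2, with 68.0 CPM (next 41.3). LPS replicate 4 was high in Oas1k, with 33.5 CPM (next 9.29). PBS replicate 2 was low in Ifnar2, at 28.6 CPM (next 29.5), in a group whose values lie close together.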

How the results depend on the processing

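Of 1001 refits of single members under 17 alternatives, 959 kept their direction and their side of the threshold, 30 lost a call, 6 gained one and 6 changed sign. The number of members called higher was 47 to 51 with 1 library left out and 47 to 51 in the other settings, and those lost were among Ifi27, Oas3, Rsad2 and Dtx3l. The number called lower was 0 to 1 with 1 library left out (Oas1f without PBS replicate 1, Ifitm10 without LPS replicate 4) and 0 otherwise. The median log2 fold change was 1.38 to 1.67 with 1 library left out, and 1.73 with PBS replicate 1 and LPS replicate 2 both left out. Signs changed for Ifitm5 under limma-voom (-0.029), limma-voom with quality weights (-0.26) and without LPS replicate 3 (-0.093; 0.62 without LPS replicate 1), and for Isg20l2 without PBS replicate 2 (-0.061; 0.071 without PBS replicate 4), LPS replicate 3 (-0.025) or PBS replicate 1 together with LPS replicate 2 (-0.0031). Over all genes, 904 to 1385 were called higher and 563 to 1199 lower with 1 library left out, against 1529 and 1200 with all libraries, and DESeq2 called 2089 lower. The cause was not tested. The replicate numbers gave no pairing: same-numbered libraries' deviations from their group means correlated at -0.06, -0.12, -0.08 and 0.23. With the replicate number as a block, 47 members were called higher, without Ifi27, Oas3 and Rsad2, and the lower call of Tlr4 was lost (adjusted p = 0.0777). The ISRE letters shortened by their last base stood in 63% of the members' windows, against 9.71% of all. Depth limits Gbp3, Ifitm5, the untested Oas1 copies and the interferon genes.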
